A study of Mus musculus with 6 samples.

Results

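Single cells that held RNA of somatostatin (Sst) and no counted RNA of Tac1 were described among reporter-sorted cells of the mouse ventromedial hypothalamus (VMH). Members were selected on their own counts of Sst and Tac1: at least 1 of Sst and 0 of Tac1, in wells kept for having 500 or more genes with a count and less than 25% mitochondrial RNA. The rule selected 67 of 530 kept wells, 12.6% (exact binomial 95% interval 9.93 to 15.8%), from 576 wells in all. Of the 67, 40 had 5 or more Sst counts and 27 had 1 to 4, and these were described apart. The genotype was Ai14f/+;Sf1-Cre throughout, in 3 females and 3 males, all taken at postnatal day 10, with 96 wells for each mouse. All mice of both sexes carried 1 copy of the Ai14f reporter allele and the Sf1-Cre driver, which switches the reporter on in cells of the Nr5a1 (SF-1) lineage, so a sorted cell need not still express Nr5a1. The hypothalamus was roughly dissected and dissociated with papain before fluorescence sorting, and wells were made into libraries with BD Precise chemistry. Members were compared within each mouse with 427 Sst-zero wells, the kept wells with 0 Sst counts, of which 157 (36.8%) held Tac1. The study had no group without the driver or the reporter.

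Somatostatin is a cyclic peptide that inhibits the release of growth hormone and other hormones and acts on neurons through inhibitory G-protein-coupled receptors. It is best known in the hypothalamus from periventricular neuroendocrine cells and from arcuate neurons, many of which use GABA. Most VMH neurons instead use glutamate, loaded into vesicles by the transporter Slc17a6 (VGLUT2), and carry the transcription factors Nr5a1 and Fezf1. Tac1 encodes the substance P and neurokinin A precursor, and Cartpt encodes the CART peptide precursor.

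The 3 peptide genes that define or mark these wells lie on different chromosomes of GRCm38: Sst on chromosome 16 (23889573 to 23890958, minus strand), Tac1 on chromosome 6 (7554879 to 7565834, plus strand) and Cartpt on chromosome 13 (99898489 to 99901091, minus strand). The 120 bases before each start site (RefSeq, GRCm38.p6) are shown because cyclic AMP, which somatostatin receptors lower, is a known regulator of the Sst gene through the palindrome TGACGTCA, the cyclic AMP response element. The RefSeq start sites lie inside the GENCODE gene spans just given, so the windows overlap those spans. Each is written 5′ to 3′ on the gene's own strand, with the palindrome in capitals where a script found it.
Sst, chr16:23890845-23890964: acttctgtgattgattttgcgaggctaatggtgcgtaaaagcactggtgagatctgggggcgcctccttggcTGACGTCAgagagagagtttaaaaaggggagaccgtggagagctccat
Cartpt, chr13:99900684-99900803: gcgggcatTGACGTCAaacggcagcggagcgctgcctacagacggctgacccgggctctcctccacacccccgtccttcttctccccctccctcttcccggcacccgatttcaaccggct
Tac1, chr6:7554941-7555060: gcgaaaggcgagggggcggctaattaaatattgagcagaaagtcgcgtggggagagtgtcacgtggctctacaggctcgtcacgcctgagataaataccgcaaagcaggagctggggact
The palindrome began 48 bases before the Sst start site and 112 bases before the Cartpt start site, and these letters did not occur in the Tac1 window. Of 32851 RefSeq promoter windows (250 bases before to 50 after the start), 588 held it, 1.79%. The palindrome reads the same on both strands. A match describes the sequence and is not evidence of binding.

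The kept wells held 185654 to 783270 counts per mouse, with medians per well of 2097 (female 2) to 7980 (male 3), so female 2 was shallow in every class. Members had a median of 5255 counts per well against 5865 in Sst-zero wells and were lower in 5 of 6 mice, by 0.054 on the log10 scale (two-sided exact sign-flip test, p = 0.125). The members were neuronal by their markers, with a median of 8 of 12 pan-neuronal genes detected per well, at least 4 in each, and at most 2 astrocyte markers in any. The 14 astrocyte markers summed to 18.0 to 122 CPM (counts scaled to a total of 1000000) over mice in members (median 80.7) and 27.6 to 642 in Sst-zero wells (median 80.5). Of these 14, 9 had a count in members, and Slc1a3, Gja1, Cldn10, Gjb6 and Acsbg1 were at 0. The part of other cells' RNA in the results below was not tested. In 9 astrocyte-like wells, whose median depth was 973 counts, Sst was not counted, which allows a share of up to 33.3%. The 46 wells left out for few genes held 0 Sst counts in 4640, where 3.77 would be held at the rate of the kept wells. No 2 wells held identical values. Nothing in the labels ties any mice to a litter or day. The exact tests rest on the spread between these 6 mice. The edgeR p-values also draw on the spread of the other genes, so they do not measure each gene's spread between mice alone.

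Sst counts were spread very unevenly over members, and few wells held most of them. Per well, Sst ran from 1 to 405 counts with a median of 8, and 18 members held exactly 1 count. Just inside the limit of 5, 3 members had 5 counts, and just outside it, 2 had 4 and 4 had 3. Members held 2477 of all 2831 Sst counts in kept wells (87.5%), and the 40 wells with 5 or more held 2433 of these. The 27 wells with 1 to 4 held the other 44. By mouse, females 1, 2 and 3 had 9, 13 and 4 members with median Sst counts of 2, 9 and 17, and males 1, 2 and 3 had 14, 13 and 14 members with medians of 4.5, 26 and 6.5. The highest count in a single well was 142, 168 and 405 in females 1 to 3 and 102, 316 and 191 in males 1 to 3. One well therefore held 52.2%, 46.9% and 91.0% of the female members' Sst counts and 31.9%, 45.1% and 50% of the male members'. Sst reached 10.5% of all counts in the well where its share was highest, in female 2 (119 of 1130). These counts chose the members and are a description only.

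**Figure D1:**
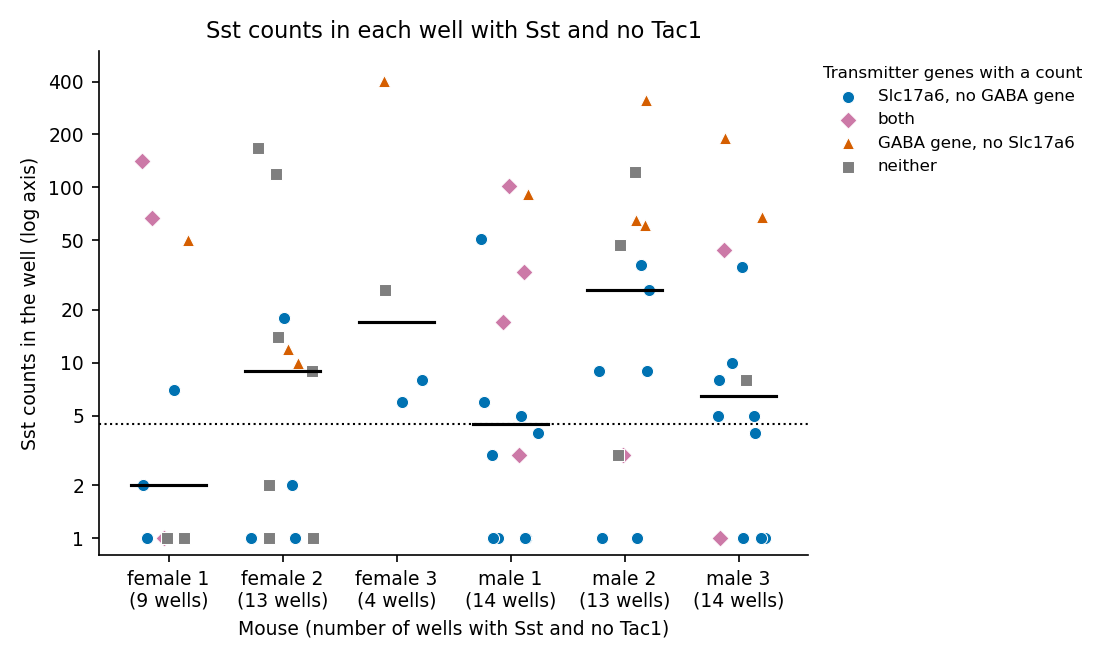
Sst counts per well (log axis) of the 67 members, by mouse, with the limit between 4 and 5 counts drawn. Each point is 1 well; all 6 mice held wells with over 100 counts, up to 405 in female 3, and wells with 1 to 4 counts came from 5 mice, with 0 in female 3.

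Wells with many Sst counts differed in transmitter genes from wells with few. The comparison is a description, since the limit of 50 counts was chosen after the values were seen and wells of 1 mouse are not replicates. Among the 15 members with 50 or more Sst counts, 11 held a GABA gene (73.3%, exact 95% interval 44.9 to 92.2%), counting Gad1 and Gad2, which make GABA, and Slc32a1, which loads it into vesicles. Slc17a6 was counted in 4 of these 15 (26.7%, 7.79 to 55.1%). Among the 25 with 5 to 49 counts, 5 held a GABA gene (20%) and 18 held Slc17a6 (72%). The 27 with 1 to 4 counts held GABA genes in 4 (14.8%) and Slc17a6 in 21 (77.8%), near the 13.6% and 77.5% of Sst-zero wells. The intervals of Sst-zero wells were 10.5 to 17.2% for GABA genes and 73.3 to 81.4% for Slc17a6. All these intervals pool wells over mice, so setting them side by side is no test. Among wells with 50 or more Sst counts, those with a GABA gene came from 5 of 6 mice and those with Slc17a6 from 2. The wells of female 2 with 168 and 119 Sst counts held neither, at 1800 and 1130 counts. Median depths of the 4 ranges, with wells pooled over mice, were 5187 to 5865 counts, while medians of the plates ran from 2097 to 7980.

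By combination, 33 members held Slc17a6 and no GABA gene (median 4 Sst counts), and 10 held a GABA gene and no Slc17a6. Those 10 came from all 6 mice and held 10 to 405 Sst counts, with a median of 66.5. Another 10 held both, and 14 held neither, at a median depth of only 2464 counts. No well with 1 to 4 Sst counts held a GABA gene without Slc17a6, whereas 8 of the 15 wells with 50 or more did.

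Of 20 VMH list genes, 18 were counted in a smaller share of the 15 wells with 50 or more Sst counts than of Sst-zero wells, and 2, Rprm and Dlk1, in a larger one. Of the smaller shares, 11 were 0 of 15, which lies below any share above 0, so the tally alone does not show a fall. Rprm, a cell-cycle regulator used as a VMH marker, was counted in 7 of 15 (46.7%) against 152 of 427 (35.6%). Fezf1, a zinc-finger factor of VMH neurons, was counted in 0 of the 15 wells with 50 or more Sst counts (which, taken as 3 counts, allows a share of up to 20%), in 10 of 25 with 5 to 49, in 10 of 27 with 1 to 4 and in 168 of 427 Sst-zero wells (39.3%). Nr5a1, the gene whose Cre marks these cells, was counted in 1 of 15, 7 of 25, 8 of 27 and 134 of 427. Pdyn, the dynorphin precursor of many VMH neurons, was counted in 1 of 15, 12 of 25, 15 of 27 and 182 of 427. Summed over the VMH list, wells with 5 or more Sst counts had 663 to 1073 CPM (median 1002 over mice) and Sst-zero wells 1180 to 1897 (median 1465), without overlap. The 27 wells with 1 to 4 counts had 889 to 1894 CPM (median 1822 over 5 mice), which overlapped both. The tissue label is VMH, but 11 of the 20 list genes were not counted in the 15 wells with 50 or more Sst counts, so these are called here by their Sst count alone.

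Most genes of the arcuate and tuberal list were not counted in the wells with 50 or more Sst counts. Of its 35 genes, 6 were counted in a larger share of the 15 wells with 50 or more Sst counts than of Sst-zero wells, 23 in a smaller share, and 29 were at 0 in those 15. Every smaller share was 0 of 15, which lies below any share above 0 in Sst-zero wells. The tally of smaller shares therefore does not show a fall. Its summed level was 205 to 689 CPM over mice (median 332) in members with 5 or more Sst counts and 247 to 557 (median 334) in Sst-zero wells. The larger shares included Otp, Isl1 (6 of 15 against 21.8%), Six3 (8 of 15 against 28.6%) and Six6 (5 of 15 against 10.5%), all developmental factors, and Zfhx3 (0 of 15 against 13.6%) and Nkx2-4 (0 of 15 against 18.3%) were among the smaller ones. Single genes of several kinds with larger shares are given next, chosen after their values were seen. Ecel1, a membrane peptidase of neurons, was counted in 12 of the 15 wells with 50 or more Sst counts (80%, 51.9 to 95.7%) from 6 mice, against 3 of 25, 2 of 27 and 32 of 427 (7.49%) in the lower ranges. Bsx, a homeobox factor of arcuate neurons, was counted in 8 of 15, 2 of 25, 0 of 27 and 10 of 427 (2.34%). Otp, a homeobox factor needed for neuroendocrine hypothalamic cells, was counted in 5 of 15, 1 of 25 and 0 of 27, and in 0 of 427 Sst-zero wells, which allows a share of up to 0.703%. Its 6 positive members came from 4 mice and held 7 Otp counts in all. Sstr2, an inhibitory somatostatin receptor, was counted in 8 of 15, 4 of 25, 1 of 27 and 34 of 427. Npy, the neuropeptide Y precursor, was counted in 4 of 15, 1 of 25, 0 of 27 and 6 of 427, and 3 of its 5 member wells were in male 2. Ecel1 and Sstr2 were not particular to wells without Tac1. Each was counted in 7 of the 36 kept wells with both Sst and Tac1 (19.4%), against 17 and 13 of all 67 members (25.4% and 19.4%). Bsx, Otp and Npy were counted in 0 of those 36. Depth was set beside these shares only as medians of wells pooled over mice. The part of depth in the shares was not tested, and free RNA in these plates was not measured.

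**Figure D2:**
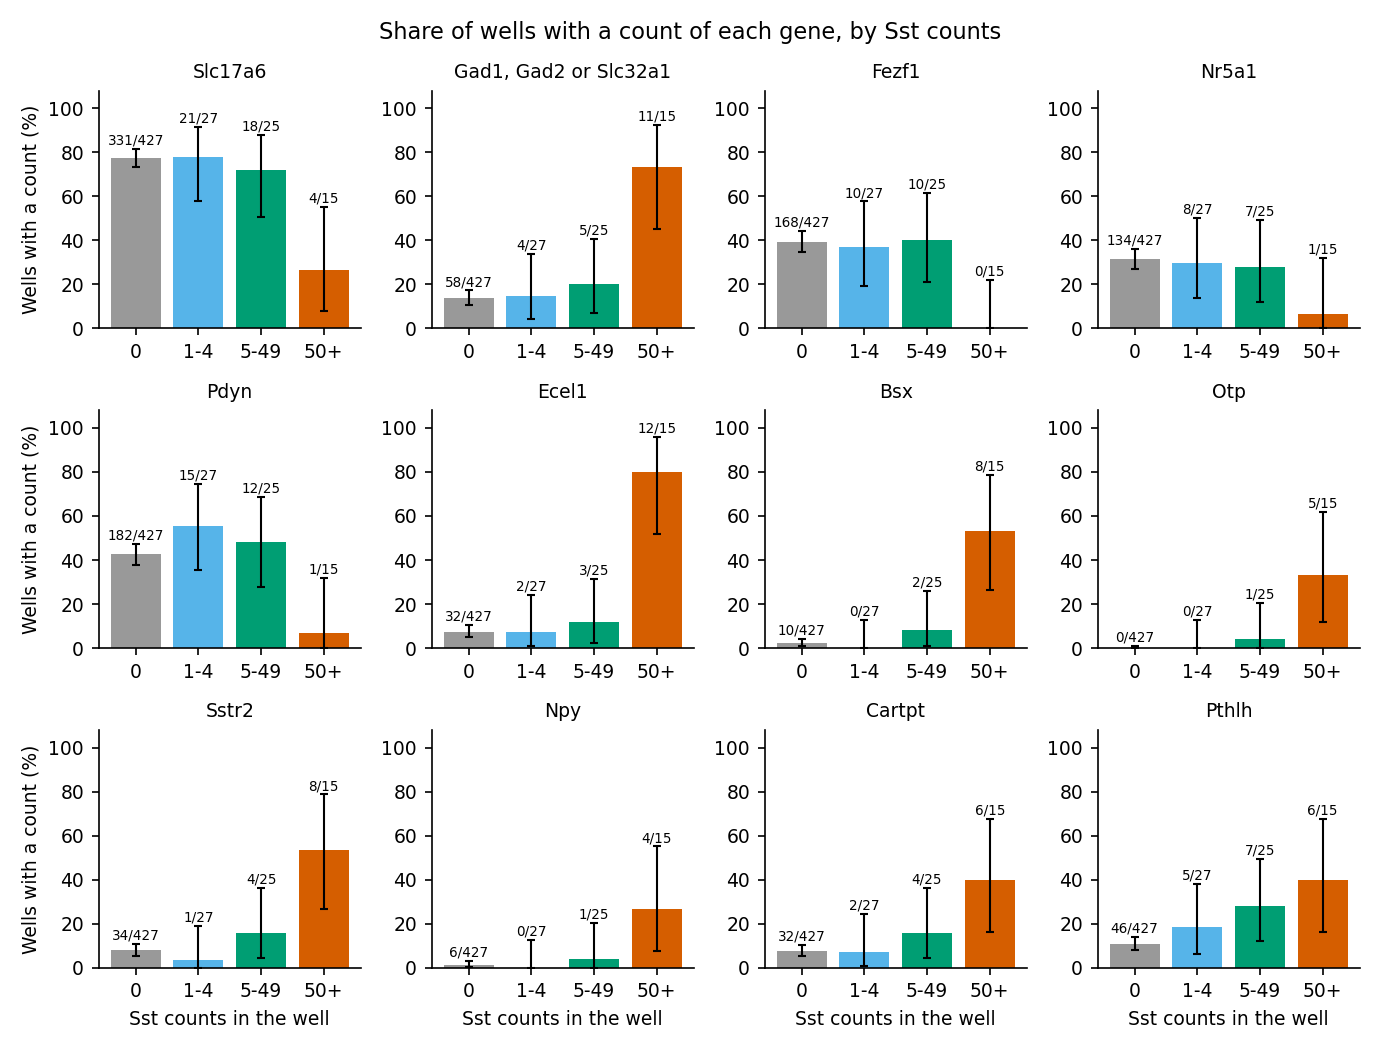
Percent of wells with at least 1 count of each gene, by Sst counts per well (0, 1 to 4, 5 to 49, 50 or more; 427, 27, 25 and 15 wells), with exact 95% binomial intervals. Ecel1 stood at 80% and Slc17a6 at 26.7% in wells with 50 or more Sst counts, against 7.49% and 77.5% in Sst-zero wells; the limit of 50 was chosen after the values were seen.

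Cartpt was an uneven marker of the members. It was counted in 12 of 67 (17.9%), in 6 of the 15 wells with 50 or more Sst counts (40%), 4 of 25 with 5 to 49, 2 of 27 with 1 to 4 (7.41%) and 32 of 427 Sst-zero wells (7.49%). Of the 36 kept wells with both Sst and Tac1, 15 held it (41.7%), at a median depth of 7684 counts. In members with 5 or more Sst counts, the Cartpt level over mice was 40.5 CPM at the lowest, 53.1 at the median and 534 at the highest, against 22.4, 47.7 and 99.7 in Sst-zero wells, so the groups overlapped. In the fit without a filter on low counts, where it could be tested, Cartpt differed by 0.79 on the log2 scale between these classes (edgeR quasi-likelihood, Benjamini-Hochberg adjusted p = 0.498).

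The low-count genes above did not pass the count filter of the main tests. A fit over 15097 genes with that filter removed and counts summed per mouse called 13 higher (0.0861%) and 115 lower (0.762%), together 0.848%, in members with 5 or more Sst counts than in Sst-zero wells. More lower than higher calls were not particular to this class. Over 15097 genes each, the same setting called 3 higher and 77 lower in members with 1 to 4 Sst counts, and 5 higher and 70 lower in all members. The genes of this fit are named after their values were seen, and it also called genes counted in a single member well, such as Th, Epb41l5 and Ripply3. Ecel1 ran from 58.8 to 476 CPM over mice (median 237) in members with 5 or more Sst counts and from 6.48 to 27.5 (median 18.3) in Sst-zero wells. All 6 mice were higher without overlap, and the log2 difference was 3.11 ± 0.35 (SE). Bsx ran from 0 to 187 CPM (median 92.8) against 0 to 14.3 (median 4.16), with male 3 at 0, and its log2 difference was 3.45 ± 0.55. Pthlh, the parathyroid hormone-like hormone, differed by 2.04 ± 0.38, with female 3 at 0. Slc32a1 (3.43 ± 0.79, adjusted p = 0.0045), Gad1 (1.98 ± 0.44, 0.0032), Otp (4.98 ± 1.26, 0.0179) and Sstr2 (1.85 ± 0.48, 0.0232) were also called by edgeR's quasi-likelihood test, with counts in members of 5, 6, 4 and 5 mice in that order, and Gad2 was not called (adjusted p = 0.108). Npy was called higher (1.39 ± 0.36, adjusted p = 0.0242), but male 2 held 50 of its 54 counts in these members. In male 1 it had 1 count in these members against 112 in Sst-zero wells, and in female 2 it had 0 against 56. Otp was at 0 in the Sst-zero wells of every mouse, so its fitted value depends on the prior count and is no bound.

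Of genes that passed the filter on low counts, 1 was called higher (0.0958%) and 6 lower (0.575%) in members with 5 or more Sst counts than in Sst-zero wells (edgeR quasi-likelihood, adjusted p under 0.05, mouse as a block), 0.67% of the 1044 tested. The calls were a calcium sensor, 2 granins, a calcium-binding protein, a neurofilament, a cadherin and a peptide precursor. DESeq2 called Nefl and Calb2, and 76 genes had an unadjusted p under 0.05 in edgeR (7.28%). Sst and Tac1 were not among the genes tested, since they chose the classes. Members lack Tac1 by the rule, whereas 157 Sst-zero wells held it. Members with 5 or more Sst counts were not compared with wells without Sst or Tac1, so the part of Tac1 wells in these calls was not tested.

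Hpcal1, a neuronal calcium sensor on chromosome 12 (17690856 to 17791933), was the gene called higher. Its level ran from 243 to 1829 CPM over mice (median 561) in members with 5 or more Sst counts and from 265 to 564 (median 311) in Sst-zero wells. It was higher in 5 of 6 mice, far above the rest in females 1 and 2 and below its Sst-zero level in female 3. The log2 difference was 0.96 ± 0.20 (edgeR quasi-likelihood, adjusted p = 0.00722). Without female 1 it was 0.69 (adjusted p = 0.13) and without female 2 it was 0.82 (adjusted p = 0.099).

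Nefl, the light neurofilament chain on chromosome 14 (68083863 to 68089095), was lower in every mouse. It ran from 62.1 to 369 CPM (median 216) in members with 5 or more Sst counts and from 507 to 577 (median 533) in Sst-zero wells, without overlap. The log2 difference was -1.21 ± 0.23 (edgeR quasi-likelihood, adjusted p = 0.00213), and it was called without each mouse in turn.

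Cdh13 (T-cadherin, a cell-surface adhesion molecule, chromosome 8, 118283733 to 119324921) ran from 0 to 287 CPM (median 223) against 331 to 415 (median 386), also without overlap, at a log2 difference of -0.99 ± 0.24 (edgeR quasi-likelihood, adjusted p = 0.0300). It was no longer called without female 2 (adjusted p = 0.10), male 1 (0.057), male 2 (0.32) or male 3 (0.079).

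Of 16 granin and peptide-processing genes, 8 were tested and 2 fell: Chga (chromosome 12, 102554969 to 102565028) and Scg2 (chromosome 1, 79434669 to 79440120), granins that fill dense-core vesicles. Chga ran from 567 to 750 CPM (median 640) in members with 5 or more Sst counts and from 852 to 1337 (median 1086) in Sst-zero wells. The groups did not overlap, and the log2 difference was -0.62 ± 0.14 (edgeR quasi-likelihood, adjusted p = 0.0165). Scg2 ran from 291 to 861 CPM (median 692) against 747 to 1511 (median 1081), lower in 5 of 6 mice, at -0.68 ± 0.15 (adjusted p = 0.0125). Neither was called without female 2 (adjusted p = 0.058 and 0.094) or male 1 (0.098 and 0.11), nor was Chga without female 1 (0.17) or Scg2 without male 3 (0.072).

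Calb2 (calretinin, a calcium-binding protein, chromosome 8, 110137502 to 110168210) ran from 0 to 943 CPM (median 643) against 110 to 1316 (median 1017). These ranges overlap, yet within each of the 6 mice the members were lower, and the log2 difference was -0.77 ± 0.15 (edgeR quasi-likelihood, adjusted p = 0.00213). It was called without each mouse in turn.

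Pomc, the melanocortin and beta-endorphin precursor of arcuate neurons, was counted in 4 of 40 members with 5 or more Sst counts (10%). In Sst-zero wells it was counted in 56 of 427 (13.1%), inside the exact interval of those members, 2.79 to 23.7%. This interval is wide and pools wells over mice, so it does not show that the shares were the same. Pomc had 4 counts in these members, at most 1 per well, and 1489 in Sst-zero wells, up to 145 in 1 well. Its level was 0 to 41.0 CPM (median 10.4) against 19.6 to 1498 (median 382), lower in 5 of 6 mice. The log2 difference was -5.05 ± 0.88 (edgeR quasi-likelihood, adjusted p = 0.000948). Whether a few Sst-zero wells with many counts set this difference for Pomc was not tested. DESeq2 did not call it, and without female 3 or without male 2 it fell below the filter on low counts and was not tested.

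Of these 7 genes, 3 were called without female 2 and 4 without male 1. With only wells at or above their plate's median depth, or with mouse left out of the model, 0 of the 7 were called; the former called 2 other genes. Hpcal1 was not called in the fit without the filter on low counts, nor Cdh13 and Chga without the well with most Sst counts in each plate.

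**Figure D3:**
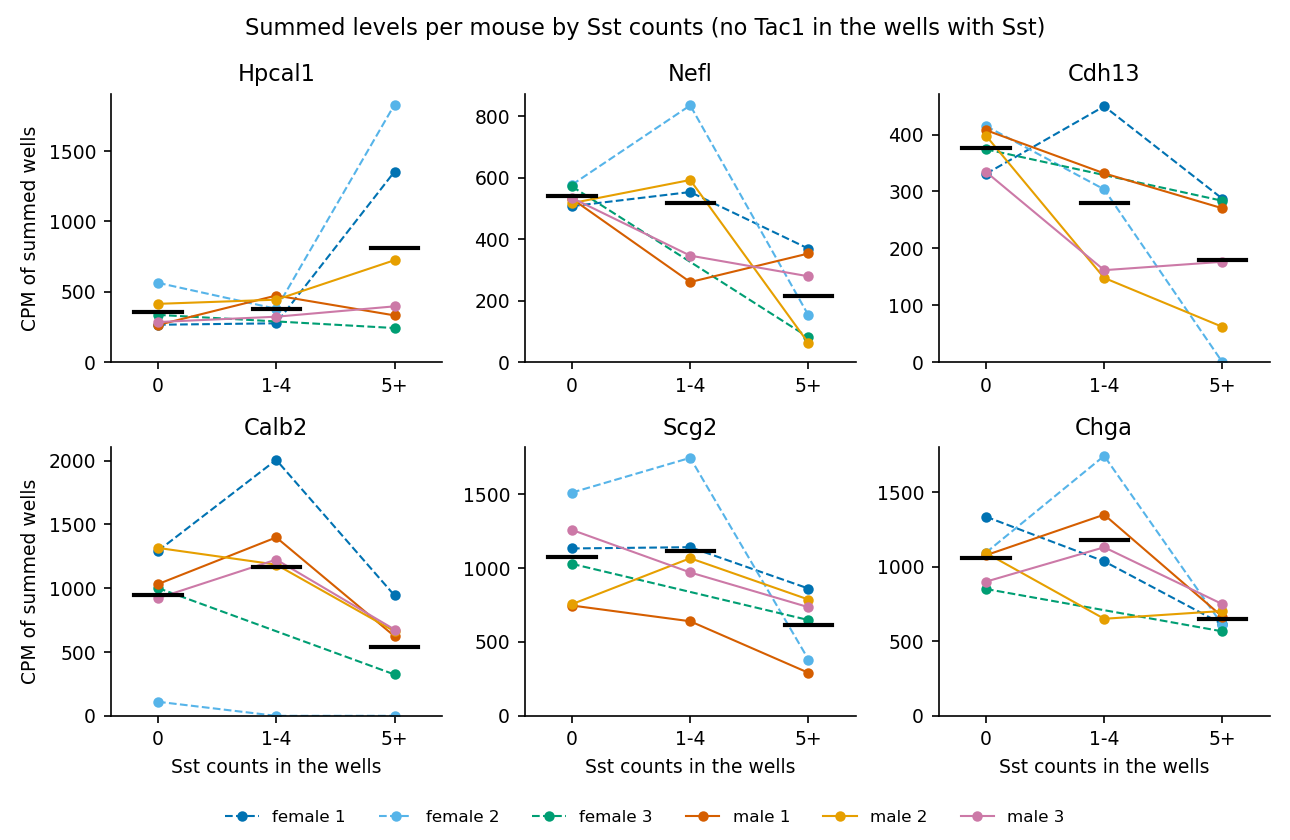
CPM of Hpcal1, Nefl, Cdh13, Calb2, Scg2 and Chga by Sst counts of the well class (0, 1 to 4, 5 or more), 1 line per mouse and black bars for the means; female 3 had no well with 1 to 4 counts. Nefl, Cdh13 and Chga in wells with 5 or more Sst counts lay below every Sst-zero value, and the high Hpcal1 values of 1354 and 1829 CPM belong to females 1 and 2.

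The 27 wells with 1 to 4 Sst counts did not give a call against Sst-zero wells. Of 1044 genes tested in 5 mice, 0 passed (0% called, edgeR quasi-likelihood, smallest adjusted p = 0.934), 50 had an unadjusted p under 0.05 (4.79%) and DESeq2 called 0. No member of any list passed. Nefl in these wells was 261 to 835 CPM (median 553 over 5 mice) and Chga 652 to 1746 (median 1132), both of which overlapped the Sst-zero range.

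Members with 5 or more Sst counts were set directly against those with 1 to 4 in the 5 mice that held enough of both, within the fit that also held the Sst-zero wells. Calb2 was lower in the former by a log2 difference of -1.04 ± 0.18 (edgeR quasi-likelihood, adjusted p = 0.000554), with means of 581 and 1163 CPM, lower in 4 of 5 mice and at 0 in both classes of female 2. Pomc was also called lower, by -6.28 ± 0.88, and rests on 1 well of male 2 that held 207 of the 209 Pomc counts of the members with 1 to 4. These 2 were 0.192% of 1044 genes tested, and 66 had an unadjusted p under 0.05 (6.32%). The count was 4 without female 1 and 1 without female 3 or without male 2, and 0 with mouse left out of the model.

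All 67 members against Sst-zero wells gave 3 calls in 2424 genes, 0.124% (1 higher, 0.0413%, and 2 lower, 0.0825%, with mouse as a block). Hpcal1 was higher by 0.68 ± 0.14 (edgeR quasi-likelihood, adjusted p = 0.00451), at 582 ± 317 against 355 ± 117 CPM (SD, n = 6) and higher in 5 of 6 mice. Nefl was lower by -0.72 ± 0.15 (adjusted p = 0.00451), at 323 ± 149 against 540 ± 28.4 CPM and lower in 6 of 6. Cdh13 was lower by -0.75 ± 0.17 (adjusted p = 0.0274), at 230 ± 106 against 377 ± 36.8 CPM and lower in 5 of 6. Myh7, a myosin heavy chain, missed the threshold at -1.47 ± 0.36 (adjusted p = 0.0534), lower in 6 of 6. Cbln1, a synapse-organising cerebellin, was at -0.77 ± 0.21 (adjusted p = 0.143). Hpcal1 was not called without female 1 (0.51, adjusted p = 0.61) or female 2 (0.62, adjusted p = 0.20). Cdh13 was not called without female 2 (-0.71, adjusted p = 0.24), male 2 (-0.53, adjusted p = 0.59) or male 3 (-0.69, adjusted p = 0.33). Nefl was called without each mouse in turn. An unadjusted p under 0.05 was found for 143 genes (5.9%). DESeq2 called 0 of the genes, as did the fit with only wells at or above the plate's median depth and the fit with mouse left out.

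By list, few members could be tested in the 67 wells and nearly none moved. Of the peptide precursors, 4 of 34 were tested and 0 passed. Their median log2 difference was -0.46 against -0.01 over all genes, with Adcyap1 (the PACAP precursor) at -0.81 ± 0.27 (edgeR quasi-likelihood, adjusted p = 0.49). Of the granin and processing genes, 12 of 16 were tested and 0 passed. VMH identity genes gave 6 tested of 20 and 0 passed, with a median of -0.28 and Slc17a6 at -0.33 ± 0.13 (adjusted p = 0.69). The calcium-binding list gave 9 of 14 tested and 1 higher (Hpcal1). Of the genes downstream of somatostatin receptors, G proteins and cyclic AMP enzymes, 13 of 25 were tested and 0 passed. Pan-neuronal genes gave 11 of 12 tested and 1 lower (Nefl), with a median of -0.15. None of the GABA genes or somatostatin receptors passed the filter on low counts, and 1 of 35 arcuate and tuberal genes did.

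Of the 6 other genes of the somatostatin list, receptors and a related ligand, Sstr2 was the one counted most in members. Sstr1 was counted in 3 of 67, Sstr3 and Sstr5 in 1 each, and Sstr4 and Cort (cortistatin, a related peptide) in 0, which allows a share of up to 4.48%. In Sst-zero wells, Sstr1 was counted in 19 of 427, Sstr3 in 28 and Sstr5 in 15.

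Shares of wells with a count were also compared after each well was thinned to 1986 counts, which left out 6 members and 32 Sst-zero wells of female 2, 12 Sst-zero wells of female 1 and 1 each of the males. Of 20 genes examined, none passed (two-sided exact sign-flip test over 6 mice, smallest possible p 0.031, smallest adjusted p = 0.417). Slc17a6 was counted in 43.4% of members and 56% of Sst-zero wells (mean over mice), lower in 5 of 6 (exact p = 0.0625). Gad1 was counted in 12.2% and 2.39%, higher in 5 of 6 (exact p = 0.0938), and Gad2 in 9.09% and 2.99%, higher in 5 of 6 (exact p = 0.0625). Slc32a1 was counted in 6.80% and 0.473% (exact p = 0.25). Without thinning, Gad1 was counted in 16.5% against 5.39% and Slc32a1 in 12.2% against 1.17%. Cartpt was counted in 6.18% and 5.33% after thinning (higher in 3 of 6, exact p = 0.875), and in 19.0% and 7.44% before it (exact p = 0.031). Both members of female 2 with Cartpt, at 1800 and 1130 counts, were among those left out, so the share of that mouse became 0 by exclusion. In female 3 and male 3 the share also became 0, with no member left out. Fezf1 went from 20.6% against 23.9% after thinning to 28.6% against 39.3% before it.

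**Figure D4:**
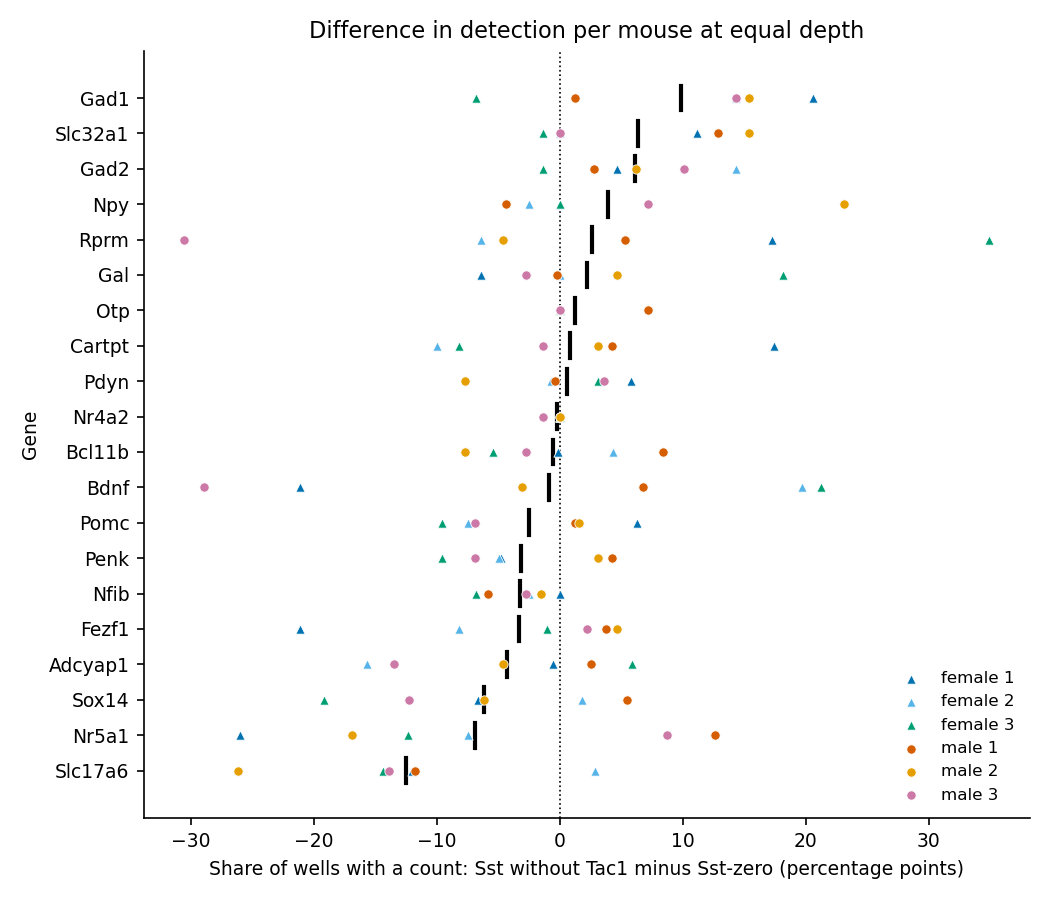
Difference in the percent of wells with a count, members minus Sst-zero wells, for 20 genes after thinning each well to 1986 counts; points are the 6 mice and black ticks their means. The mean difference was 9.83 percentage points for Gad1 and -12.6 for Slc17a6, and none of the 20 passed after adjustment.

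Against the 270 wells without Sst or Tac1, which removes the Tac1-positive comparison wells, 0 of 2036 genes passed (0% called, edgeR quasi-likelihood, smallest adjusted p = 0.125, 115 or 5.65% at an unadjusted p under 0.05, DESeq2 0). Nefl was lower in 6 of 6 mice at -0.63 ± 0.15 (adjusted p = 0.125), and Cst3 (cystatin C) in 6 of 6 at -0.47 ± 0.12 (adjusted p = 0.125). The count was 3 without male 3 and 1 without female 3 or without male 1.

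The 36 wells with both Sst and Tac1 were the other class with Sst. They had a median of 2 Sst counts and at most 105, 33 held Slc17a6 and 2 held a GABA gene, and 10 held exactly 1 Tac1 count. Tac1 was present in 35% of kept wells with Sst and 36.8% of those without. In the 5 mice with enough wells (female 2 was left out), 4 of 1265 genes were called lower and 0 higher in members (0.316%), and 83 had an unadjusted p under 0.05 (6.56%). Nefl was lower by -0.99 ± 0.20 (edgeR quasi-likelihood, adjusted p = 0.00114), in 4 of 5 mice, at 289 ± 138 against 597 ± 203 CPM. Tspan7, a neuronal tetraspanin, was lower by -0.57 ± 0.14 (adjusted p = 0.0250), in 5 of 5. Scg2 was lower by -0.62 ± 0.16 (adjusted p = 0.0393) and Tuba4a, an alpha-tubulin, by -0.65 ± 0.17 (adjusted p = 0.0476), each in 5 of 5. These counts were unstable: 8 without female 1, 1 without male 2 or without male 3, 0 without female 3 or without male 1, and 0 with DESeq2. In the fit without the filter, which called 7 of 12989 genes higher (0.0539%) and 3 lower (0.0231%), together 0.077%, Gad2 (14 of 67 members, 0 of 36) and Bsx (10 of 67, 0 of 36) were called higher, and Cartpt lower by -2.61 ± 0.40. Cartpt had 3, 5 and 3 counts in members of males 1, 2 and 3 against 14, 42 and 22 in the wells with both, with the 42 in 2 wells. In females 1 and 3 it had 7 and 1 counts against 1 and 2, a higher level in members in both.

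Members made up 10.2%, 14.9% and 4.65% of kept wells in females 1, 2 and 3. In males 1, 2 and 3 they made up 15.1%, 15.5% and 15.2%. The means by sex were 9.94 ± 5.15% and 15.2 ± 0.213% (SD, n = 3), without overlap (two-sided exact permutation test, p = 0.1, the smallest 3 against 3 can give, adjusted p = 0.3 over 3 shares). After thinning the means were 9.72% and 15.1% and the sexes overlapped (exact p = 0.2). Wells with 5 or more Sst counts were 5.75 ± 1.99% and 9.34 ± 1.64% (exact p = 0.2), and wells with 1 to 4 were 4.19 ± 3.68% and 5.91 ± 1.44% (exact p = 0.7).

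No gene passed for a sex difference within the members (0 of 1343, 0% called, edgeR quasi-likelihood, 44 or 3.28% at an unadjusted p under 0.05, DESeq2 0). Pdcd10, a protein of vascular and cytoskeletal signalling, was lowest in p: 4.06 ± 7.04 CPM in males against 167 ± 20.6 in females (log2 difference -4.95 ± 0.97, adjusted p = 0.141). For the interaction of sex with membership, 0 of 3173 passed (0% called, smallest adjusted p = 0.271, 141 or 4.44% at an unadjusted p under 0.05, DESeq2 0).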

How the data were processed

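Messenger RNA was counted in single wells of 6 mice, 1 plate of 96 wells each. The authors deposited raw counts (whole numbers, 21926 genes by well). HTSeq and mm10 are named in the submitters' processing notes. Not given in the sources used here: aligner, versions, strand, and reads or molecules as the thing counted, so intervals cover counting error only. No doublet caller was run.

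Counts were summed per mouse and class of at least 3 wells, because mice and not wells are the replicates. edgeR 4.0.16 (R 4.3.3) ran quasi-likelihood tests after filterByExpr and TMM scaling, with Sst and Tac1 removed and a Benjamini-Hochberg threshold of 0.05. Mouse was a block in comparisons of classes, since both classes come from the same mouse and plate. Fold changes are log2, first class minus second. CPM are sums scaled by the total over all genes. Shares over mice were tested with two-sided exact sign-flip or permutation tests. Self-tests used simulated counts with 200 changed genes. Other tools were Python 3.11.15 with scipy 1.17.1, limma 3.58.1 and DESeq2 1.42.0.

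Alternatives (90) were other tools, filters, depths and Sst limits, and leaving out each mouse. The members and the 19 gene lists were chosen with earlier results of these data known. Genes were named by a rule: Sst, Tac1 and Cartpt; up to 10 called genes per direction moving 1 way in every mouse with at least 20 CPM, or, under 3, the 5 smallest p; up to 4 of each list; and the 20 detection genes. Hpcal1, Nefl, Cdh13, Calb2, Scg2 and Pomc were named where called although not every mouse moved 1 way. Ecel1, Bsx, Pthlh, Sstr2, Th, Epb41l5 and Ripply3 were named after their values were seen. Positions are from GENCODE vM21 (GRCm38).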

Additional observations from a re-analysis of the deposited data

Results flagged for a closer look

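Values of 14 measures over the 6 mice were examined for a mouse far from the others, and 2 stood apart. How often chance gives this for measures as skewed as these 2 was not determined. The first is built from Sst counts, which chose the members, and is a description only. In female 3, 1 well held 91.0% of the Sst counts of members, and the nearest mouse was at 52.2%. This mouse had 4 members, the fewest. In male 2, Pomc stood at 2523 CPM in members, and the nearest mouse was at 37.5 CPM. Of its Pomc counts, 207 were in 1 well with 1 to 4 Sst counts. Whether that well held more than 1 cell was not tested.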

How the results depend on the processing

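Female 2 was the shallowest plate, and genes under the count filter were not tested outside the fit without it. With DESeq2, the counts of called genes were 0 (members against Sst-zero wells), 0 (against wells with Sst and Tac1), 2 (5 or more Sst counts against Sst-zero) and 1 (5 or more against 1 to 4). With no filter on low counts they were 75 of 15097 genes tested (members against Sst-zero), 20 of 14536 (against wells without Sst or Tac1) and 10 of 12989 (against Sst and Tac1). They were 128 (5 or more against Sst-zero), 80 (1 to 4 against Sst-zero) and 7 (5 or more against 1 to 4), each of 15097. They were 11 of 12071 (sex) and 2 of 15097 (interaction). With wells at or above the plate median of counts they were 0, 0, 2, 6 and 4 in members against Sst-zero, against Sst and Tac1, 5 or more against Sst-zero, 5 or more against 1 to 4, and the interaction. The genes tested were 1509, 705, 1985, 1985 and 2217 in that order. Without the mouse block (no replicate block) the called genes were 0 in those first 4 comparisons. That setting and DESeq2 had the same numbers of genes tested as the main fits. Without the well with most Sst counts in each plate the called genes were 2 of 1157 (against Sst and Tac1), 4 of 952 (5 or more against 1 to 4) and 4 of 3085 (interaction). With at least 2 Sst counts for a member they were 4 of 1781 (against wells without Sst or Tac1), 0 of 721 (against Sst and Tac1) and 3 of 2787 (interaction). With at least 1 well per mouse and class they were 2 of 921 (against Sst and Tac1). With limma on mean CPM they were 1 of 6240 (members against Sst-zero) and 1 of 6309 (against wells without Sst or Tac1).

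Leaving out each mouse gave 2 to 3, 0 to 3, 0 to 8, 3 to 7, 0 to 1, 1 to 4, 0 to 2 and 1 to 2 called genes in the 8 comparisons in the order of the report's fits (members against Sst-zero, against wells without Sst or Tac1, against Sst and Tac1, 5 or more and 1 to 4 against Sst-zero, 5 or more against 1 to 4, sex, interaction). The genes tested in these fits ran from 963 to 5122, so the counts are not shares. The share difference, male minus female, ran from 2.66 to 7.81 percentage points for all members, -0.381 to 3.07 for 1 to 4 counts (reversed without female 3) and 2.91 to 4.74 for 5 or more. The log10 depth difference ran from -0.0738 to -0.0300. Replicate numbers of females and males did not pair (r of -0.051, -0.022 and 0.101 for same-numbered mice); with the number as a replicate block the sex comparison called 0.

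Differences in detection (percentage points) that changed sign under a setting were Cartpt (-1.22 at 2 counts), Fezf1 (6.54 at 2 counts), Pdyn (-3.01 unthinned, -3.19 at 2 counts, -3.30 against wells without Sst or Tac1), Gal (-2.50 unthinned), Bdnf and Adcyap1 (3.01 and 1.28 against wells without Sst or Tac1), Sox14 (0.0177 at 2 counts) and Bcl11b (2.24 unthinned, 1.55 against wells without Sst or Tac1). Leaving out each mouse in turn gave -2.47 to 3.01 for Cartpt, -4.88 to 0.268 for Fezf1, -0.435 to 2.25 for Pdyn, -0.965 to 3.96 for Gal, -3.83 to 9.27 for Rprm, -5.37 to 4.67 for Bdnf and -2.37 to 0.851 for Bcl11b. Fold changes that changed sign were Nrsn2 (-0.057, 5 or more Sst counts), Psmb4 (-0.049) and Fabp5 (-0.043, both 1 to 4) without the filter, Ctxn1 (-0.16) in deeper wells, Pomc with DESeq2 (-1.34 for 1 to 4 counts and -0.12 for the interaction) and Gm10260 (-4.45 to 0.37 over mice left out, interaction). The cause was not tested. Of the values of single genes, 154 of detection and 984 of fold changes kept direction and side of the threshold, 96 fold changes lost the call and 48 gained one.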
